A study of Mus musculus with 30 samples.

Results

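The cartilage matrix and the chondrocytes that make it are represented here by 35 genes, out of 53715 genes counted in each table, in RNA-seq of mouse embryos with a conditional deletion of Myocd, the gene for myocardin, a coactivator of the smooth muscle programme. The genes were named by hand as known markers of cartilage: 7 collagens, 7 proteoglycans and their linkers, 5 matrilins and other matrix adaptors, 6 secreted or membrane proteins of cartilage, 5 transcription regulators, 3 signals and receptors and 2 enzymes that start or sulphate glycosaminoglycan chains. They were compared in 6 mutant and 4 control tracheas at E18.5, in 6 mutant and 4 control lungs at E18.5 (right lobes) and in 5 mutant and 5 control lungs at E13.5 (both sides), each library from 1 embryo's lung or trachea. Mutants (Tbx4rtTAi/+; tetOcrei/+; MyocdF/F) carried 2 floxed Myocd alleles together with an inducible Cre that acts in cells where the Tbx4-driven transactivator is made and the inducer is given; that driver is known for activity in the mesenchyme of lung and trachea. Controls carried 1 floxed allele (MyocdF/+) with the same pair of transgenes, except E13.5 control 1, which had 2 floxed alleles (MyocdF/F) and neither transgene. The age, dose and duration of induction are not given in the sources used here. Replicates are labelled as separate lungs or tracheas; litters are not given.

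Cartilage of the trachea forms as a row of C-shaped rings, on the side opposite the band of airway smooth muscle. SOX9, with SOX5 and SOX6, switches on the genes of the chondrocyte, and these cells deposit a matrix in which thin fibrils of type II, IX and XI collagen hold aggrecan, a large sulphated proteoglycan that binds hyaluronan and water. Matrilins, COMP and chondroadherin join the fibrils to other matrix proteins and to the cells. Type X collagen marks the hypertrophic cells that cartilage makes on its way to bone.

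Tracheal libraries held 11.7 to 30.5 M counts each; lung libraries held 19.9 to 32.8 M at E18.5 and 17.4 to 28.5 M at E13.5. Levels are CPM (counts divided by the library size, scaled by the TMM method, in M). For levels the scaling was done within each tissue and age, and for folds over all libraries of the comparison. TPM, which also divides by exon length, is used only to rank genes against each other. Folds and adjusted p-values come from edgeR's quasi-likelihood test with Benjamini-Hochberg adjustment over all genes tested, at a threshold of 0.05. Myocd had 2.65 to 8.73 CPM in mutant and 0.881 to 7.70 CPM in control tracheas, 5.69 to 10.4 and 6.14 to 12.1 CPM in mutant and control E18.5 lungs, and 6.73 to 13.2 and 10.1 to 18.8 CPM in mutant and control E13.5 lungs; reads outside a deleted stretch are still counted, so it does not check the genotype. The airway smooth muscle list, whose genes myocardin is known to drive, summed to 343 to 582 CPM in mutant tracheas and 1015 to 1414 CPM in control tracheas. Trachea control 2 and mutant 4 held under 15 M counts, and mutant 4 stood apart in further ways given below. Genes detected numbered 16530 in control 2, 20198 in mutant 4 and 22138 to 26167 in the other tracheas.

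Where the genes start bears on whether they share obvious sequence features. RefSeq promoter sequence (GRCm38.p6) was at hand for 27 of the 35 genes, at 39 start sites. Below are the 250 bases before the start of 5 of them, printed 5′ to 3′ on the gene's strand: Cytl1, since it alone passed the adjusted threshold in mutants; Acan and Matn3, whose mutant and control tracheas did not overlap; and Chad and Chadl, which show a match. Capitals mark a match on either strand to the letters ACAATG or to ACAAAG, both SOX-type motifs, or to TATAAA, the TATA box.
Cytl1, chr5:37735269-37735518, plus strand: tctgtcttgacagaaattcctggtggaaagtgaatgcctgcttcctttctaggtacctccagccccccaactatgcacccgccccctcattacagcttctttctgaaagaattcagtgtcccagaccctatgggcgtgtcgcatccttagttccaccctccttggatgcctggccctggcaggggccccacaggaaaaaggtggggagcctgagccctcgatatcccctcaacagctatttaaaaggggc
Acan, chr7:79052976-79053225, plus strand: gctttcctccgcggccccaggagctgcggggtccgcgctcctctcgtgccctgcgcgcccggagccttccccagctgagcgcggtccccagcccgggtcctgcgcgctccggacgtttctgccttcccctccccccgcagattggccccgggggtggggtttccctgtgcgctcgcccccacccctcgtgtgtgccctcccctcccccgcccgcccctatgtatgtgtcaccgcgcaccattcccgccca
Matn3, chr12:8947679-8947928, plus strand: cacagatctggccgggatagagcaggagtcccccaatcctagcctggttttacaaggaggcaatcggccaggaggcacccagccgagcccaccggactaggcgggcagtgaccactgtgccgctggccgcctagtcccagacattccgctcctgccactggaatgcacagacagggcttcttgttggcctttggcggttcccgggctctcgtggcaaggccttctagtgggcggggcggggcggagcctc
Chad, chr11:94564797-94565046, plus strand: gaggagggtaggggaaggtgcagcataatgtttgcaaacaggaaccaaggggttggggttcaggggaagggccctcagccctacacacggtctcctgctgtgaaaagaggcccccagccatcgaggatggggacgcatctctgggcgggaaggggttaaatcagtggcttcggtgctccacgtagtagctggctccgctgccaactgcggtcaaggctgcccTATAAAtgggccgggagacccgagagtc
Chadl, chr15:81697288-81697537, minus strand: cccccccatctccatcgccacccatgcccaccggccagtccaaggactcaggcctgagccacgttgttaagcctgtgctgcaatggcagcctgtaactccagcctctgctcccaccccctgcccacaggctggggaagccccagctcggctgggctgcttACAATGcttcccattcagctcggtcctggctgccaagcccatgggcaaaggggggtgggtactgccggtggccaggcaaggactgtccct
The first 3 have no capitals, Chad has 1 TATA box and Chadl 1 SOX-type motif. Each window ends at a RefSeq start. The Acan window ends at 79053225, upstream of the gene start used for counting, 79053483, so the bases between them were not searched. The letters ACAATG lay in 6 of the 39 windows of these genes (4 genes), and in 10.7% of all 32851 RefSeq windows of the same length. The letters ACAAAG lay in 8 of the 39 windows (4 genes), and in 16.5% of all. Either one lay in 11 of the 39 (6 genes: Chadl, Col10a1, Epyc, Pth1r, Sox5 and Sox6), and in 25.2% of all. The TATA box letters lay in 5 of the 39 windows (Chad, Col10a1, Col11a2, Sox6 and Wwp2), and in 12.4% of all. A window could hold several of these motifs, and a match is a description of letters only.

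In control embryos the 35 genes took 1.68% to 2.43% of a tracheal library and 0.0659% to 0.0742% of a lung library at E18.5, as shares of the TMM-scaled counts. The order of the genes by TPM in control tracheas began with Col2a1, the type II collagen that makes up the fibrils, at 2780 ± 744 TPM (SD, n = 4 here and for the next values). Chad, a leucine-rich repeat protein that binds collagen, stood at 1282 ± 208 TPM, within its spread of Col9a2 at 1198 ± 269 TPM. Col9a1 and Col9a3, the other chains of type IX collagen, which sits on the fibril surface, had 985 ± 287 TPM and 951 ± 225 TPM, also within their spread of each other. Cytl1, a small secreted protein found in cartilage, followed at 846 ± 131 TPM. Col11a2, a chain of type XI collagen that sets fibril width, had 717 ± 175 TPM, and Cnmd (chondromodulin), an inhibitor of vessel growth, 520.0 ± 122 TPM. Acan and Col11a1 came next with 419.9 ± 92.9 TPM and 390.4 ± 127 TPM. At the far end were Sox6 and Sox5 with 5.47 ± 0.281 TPM and 4.2 ± 0.373 TPM, Nkx3-2 with 2.64 ± 1.48 TPM, and Ihh and Col10a1 below 1 TPM.

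**Figure D1:**
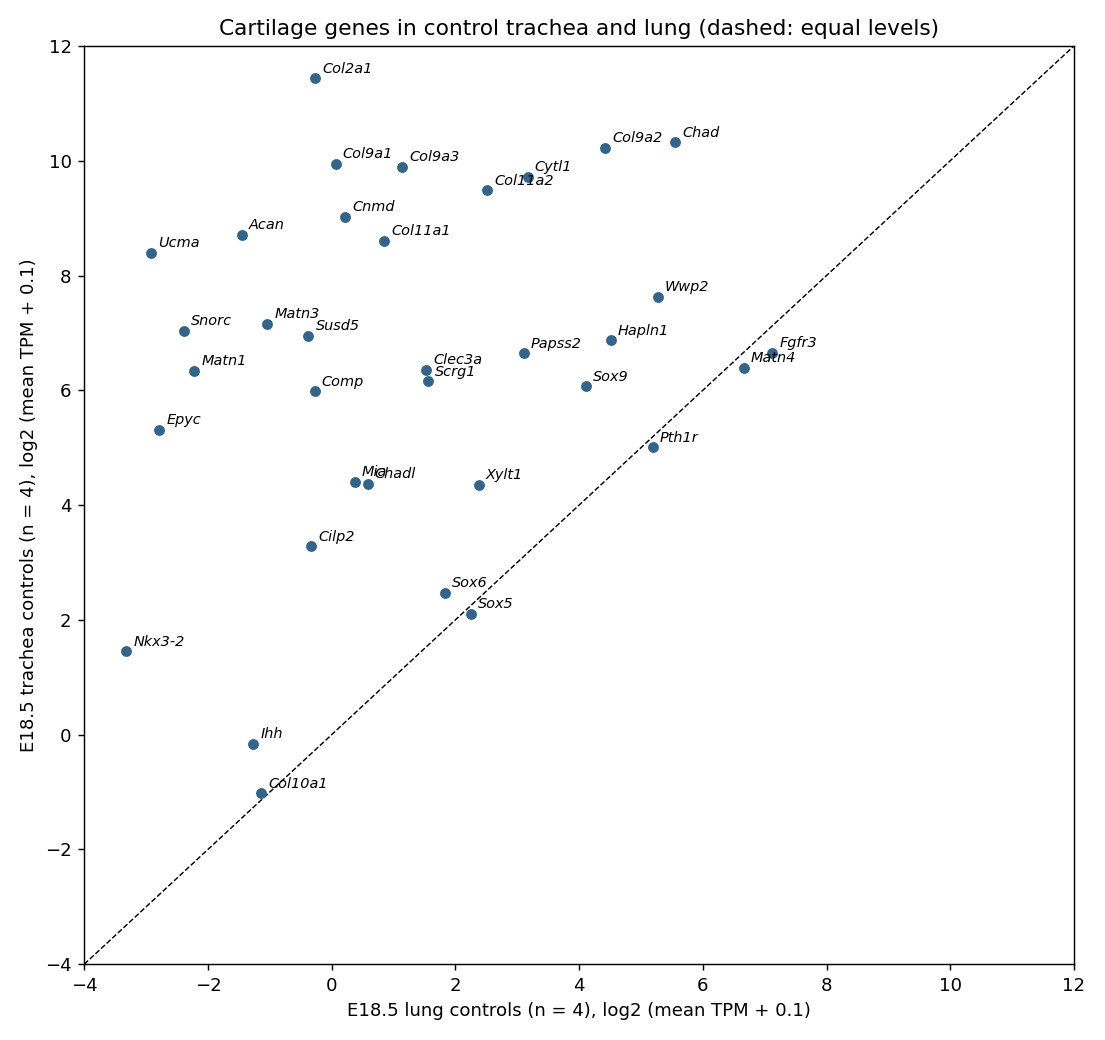
Mean TPM of the 35 genes in E18.5 control tracheas (vertical) against E18.5 control lungs (horizontal), both as log2 (TPM + 0.1), 4 libraries each. Most points lie far above the dashed line of equal levels, while Fgfr3, Matn4, Pth1r, Sox5, Sox6, Ihh and Col10a1 lie near it.

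Set against control lungs, 29 of 33 genes tested were higher in control tracheas and 0 lower; over all genes 24.7% passed the threshold upwards. A gene near 0 in lung passed the filter on low counts through the trachea alone, so this count describes the list and carries no further weight; in these samples most of the 35 genes were much more abundant in the organ that holds cartilage. Acan had 993, 877, 1300 and 1127 CPM in control tracheas and 0.726, 0.912, 0.42 and 0.0406 CPM in control lungs, a log2 fold change of 10.99 (adjusted p = 3.88e-09, SE 0.39). Sox9 had 84.7, 112, 91.3 and 93.3 CPM in control tracheas and 15.6, 17.7, 18.02 and 24.9 CPM in control lungs, a log2 fold change of 2.40 (adjusted p = 1.73e-07, SE 0.15). Wwp2, a ubiquitin ligase that hosts a cartilage microRNA in an intron, differed by a log2 fold change of 2.79 (adjusted p = 1.09e-08, SE 0.12), and Hapln1, the link protein that locks aggrecan onto hyaluronan, by a log2 fold change of 2.79 (adjusted p = 7.79e-08, SE 0.16). Sox9, Wwp2 and Hapln1 were thus well above 10 CPM in lung too.

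The 4 genes tested that did not pass are known from cells outside cartilage as well. Fgfr3, a fibroblast growth factor receptor that restrains chondrocyte growth, had 247 ± 29.4 CPM in control tracheas and 266 ± 7.12 CPM in control lungs (SD, n = 4 each; log2 fold change -0.04, adjusted p = 0.743, SE 0.08). Matn4, a matrilin, had 149 ± 16.9 CPM in control tracheas and 140.2 ± 24.6 CPM in control lungs (log2 fold change 0.16, adjusted p = 0.322, SE 0.13). Pth1r, the receptor for parathyroid hormone-related protein, had a log2 fold change of 0.25 (adjusted p = 0.0752, SE 0.11), and Sox5 a log2 fold change of 0.30 (adjusted p = 0.138, SE 0.16). Reads of these genes therefore cannot be assigned to cartilage in either tissue. Ucma, Snorc, Epyc, Matn1 and Nkx3-2 were at or near 0 in lung, with group means of 0 to 0.0608 CPM in E18.5 control lungs, and no fold is given for them.

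In mutant tracheas the summed level of the 35 genes was 9878, 7852, 6737, 10140, 18680 and 19200 CPM in mutants 1 to 6, against 16780, 19300, 24320 and 23870 CPM in controls 1 to 4. The sums of mutants 1 to 4 lay under every control and those of mutants 5 and 6 within the range of the controls. With single genes tested over all 6 mutants and 4 controls, 1 of the 35 genes passed the adjusted threshold, Cytl1, which was lower; over all 18315 genes 0.0655% passed downwards. By sign, 32 of 35 genes had a log2 fold change below 0, against 47.4% of all genes, and the median was -0.64, against 0.02 over all genes. At an unadjusted p under 0.05, 18 of 35 were lower, against 3.42% of all genes, and 0 were higher, against 3.33% of all. Col9a1, Acan, Matn3, Cytl1 and Fgfr3, 5 of 35, were lower in every mutant than in every control, against 1.22% of all genes. The list was chosen with earlier results of these data known, so these shares describe it and are no independent test. In bulk tissue, fewer chondrocytes and less RNA per chondrocyte cannot be told apart.

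**Figure D2:**
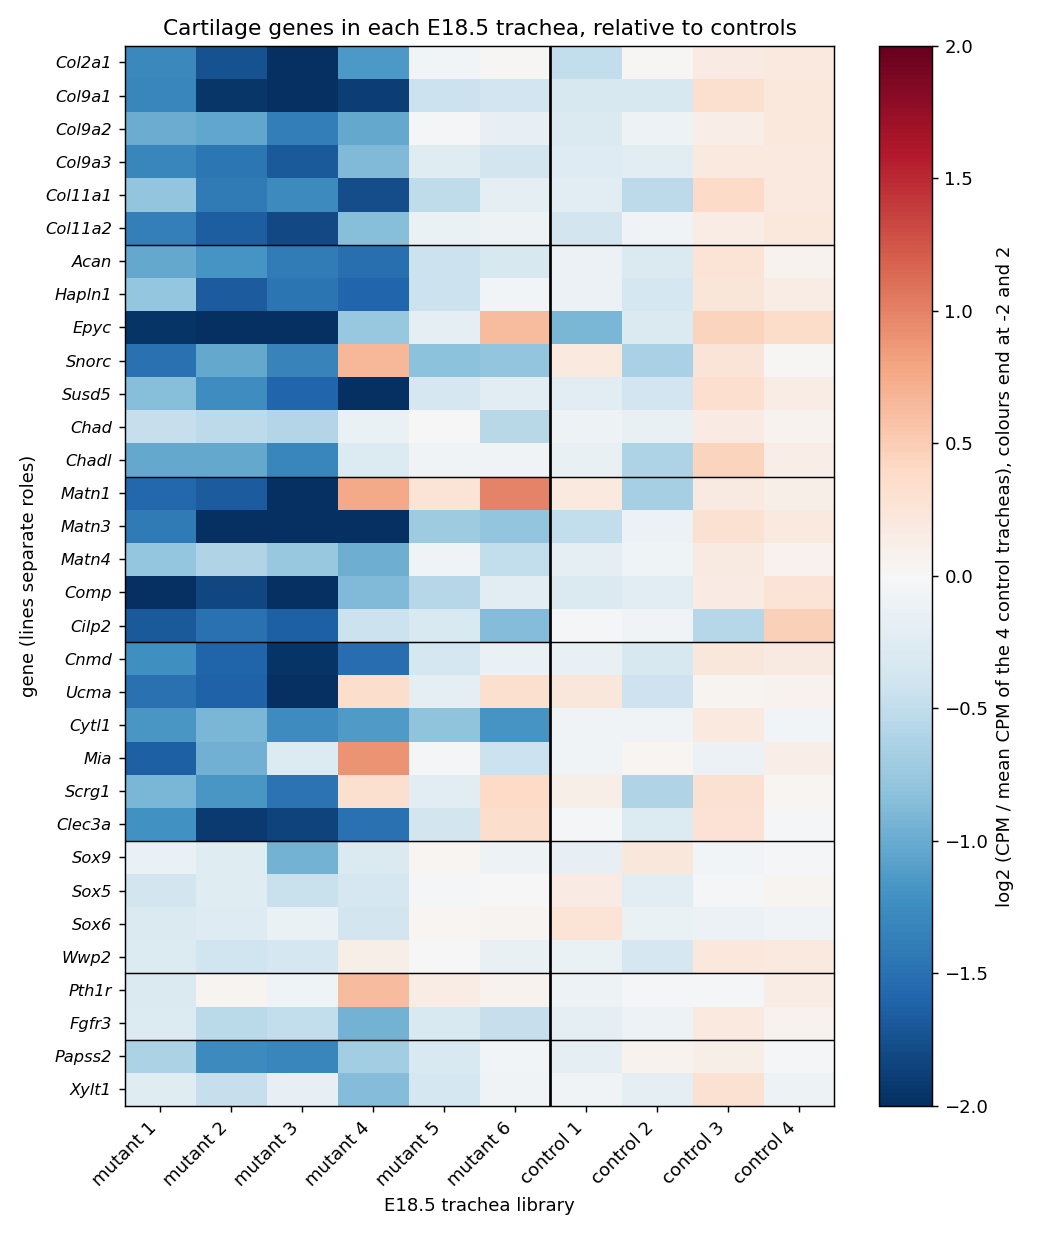
Level of 32 of the 35 genes (those at 5 CPM or more) in each E18.5 trachea library as log2 of the ratio to the mean of the 4 controls, mutants left and controls right; blue is lower, red higher. Mutants 1, 2 and 3 are blue in nearly every matrix gene, mutant 4 is blue in some and red in others, and mutants 5 and 6 are pale except for a few genes such as Cytl1 and Matn3; the rows of Sox9, Sox5, Sox6, Wwp2 and Pth1r are pale in most libraries.

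Library by library, 31, 32, 29, 22, 12 and 11 of the 35 genes lay below every control in mutants 1 to 6. Of all genes tested, 14.7%, 19.8%, 20.2%, 30.9%, 12.3% and 13.7% did so in the same 6 libraries. Over the 32 genes at 5 CPM or more, the median ratio to the control mean was 0.4926, 0.433, 0.382, 0.551, 0.852 and 0.906 in mutants 1 to 6, and 0.905, 0.864, 1.14 and 1.09 in controls 1 to 4. The labels give no feature that sets mutants 5 and 6 off from the others. In the main fits no average was taken over some mutants only. Some alternative fits given below left mutants out or gave mutants 5 and 6 no weight.

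The collagens of the thin fibrils were low in mutants 1 to 4 and near control levels in mutants 5 and 6. Col2a1 (type II; chromosome 15, 97975602 to 98004695, GRCm38) had 1897 at the lowest, 3763 at the median and 8857 CPM at the highest in mutant tracheas, against 6224, 8836, 9804 and 10050 CPM in control tracheas. Mutants 1 to 4 lay below every control and mutants 5 and 6 among the controls, and the log2 fold change of -0.84 (adjusted p = 0.733, SE 0.40) did not pass. Col9a1 (chromosome 1, 24177610 to 24252684) had 427 at the lowest, 576 at the median and 1303 CPM at the highest in mutant tracheas, against 1370, 1358, 2115 and 1962 CPM in control tracheas. Its groups did not overlap, although mutants 5 and 6 lay just under the lowest control, and it gave a log2 fold change of -1.16 (adjusted p = 0.596, SE 0.35). Col9a2 had 485 at the lowest, 628 at the median and 1239 CPM at the highest in mutant tracheas, against 1031, 1180, 1381 and 1466 CPM in control tracheas, a log2 fold change of -0.68 (adjusted p = 0.653, SE 0.24). Col9a3 had 391 at the lowest, 592 at the median and 1060 CPM at the highest in mutant tracheas, against 1045, 1085, 1439 and 1435 CPM in control tracheas, a log2 fold change of -0.89 (adjusted p = 0.51, SE 0.26). Mutant 5 was among the controls for both genes, and mutant 6 for Col9a2 only. Col11a2 had 478 at the lowest, 786 at the median and 1552 CPM at the highest in mutant tracheas, against 1291, 1593, 1852 and 1939 CPM in control tracheas, a log2 fold change of -0.82 (adjusted p = 0.725, SE 0.34). Col11a1, the other type XI chain, averaged 916 ± 378 CPM in mutant tracheas (SD, n = 6) and 1698 ± 467 CPM in control tracheas (SD, n = 4). For both type XI chains mutants 1 to 4 were below every control.

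Col10a1, the collagen of hypertrophic cartilage, was close to 0: 0 at the lowest, 0.584 at the median and 1.02 CPM at the highest in mutant tracheas, against 1.1, 0, 0.129 and 0.574 CPM in control tracheas. At this depth no difference was detectable (log2 fold change 0.18, adjusted p = 0.982, SE 1.12). The 12 genes of a list for hypertrophic cartilage and bone summed to 87.7 to 109 CPM in mutant and 78.5 to 129 CPM in control tracheas, and 0 of 6 tested passed in either direction by edgeR or DESeq2. At an unadjusted p under 0.05, 2 of these 6 were lower, against 3.42% of all genes. The most abundant of that list were Mef2c and Alpl, which other cells also make.

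Among proteoglycans, aggrecan was the clearest. Acan (chromosome 7, 79053483 to 79115099) was below every control in all 6 mutants, at 377 at the lowest, 503 at the median and 862 CPM at the highest, against 993, 877, 1300 and 1127 CPM in control tracheas. Its log2 fold change of -0.90 (adjusted p = 0.295, SE 0.22) did not pass the adjusted threshold (unadjusted p = 0.00105); by DESeq2, the alternative test, it did. Hapln1 averaged 130.2 ± 62.2 CPM in mutant tracheas and 236 ± 42.6 CPM in control tracheas (log2 fold change -0.86, adjusted p = 0.667, SE 0.31), with mutant 6 inside the control range. Susd5, a sushi domain protein that binds hyaluronan, averaged 91.9 ± 43.5 CPM in mutant tracheas and 172 ± 38.6 CPM in control tracheas, with mutant 4 the lowest library. Chad had the smallest log2 fold change of the 8 genes highest by TPM, with 493 at the lowest, 526 at the median and 744 CPM at the highest in mutant tracheas, against 691, 666, 825 and 773 CPM in control tracheas (log2 fold change -0.36, adjusted p = 0.667, SE 0.13). Chadl, a relative of Chad, averaged 25.4 ± 9.35 CPM in mutant tracheas and 36.97 ± 11.1 CPM in control tracheas. In a later annotation than that of the counts, 19.5% of its exon bases are shared with another gene, L3mbtl2. Reads there are not counted where the annotation of the counts holds the same overlap. Epyc (epiphycan), a small leucine-rich proteoglycan, spread widely, over 4.56 to 52.9 CPM in mutant and 18.1 to 46.9 CPM in control tracheas, and shares 40.6% of its exon bases with a predicted gene. Snorc, a small transmembrane proteoglycan of chondrocytes, had 11.7 to 51.7 CPM in mutant and 20.99 to 39.1 CPM in control tracheas, with mutant 4 above every control and the other 5 mutants below every control.

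The matrix adaptors differed among themselves. Matn3 (matrilin-3; chromosome 12, 8947929 to 8972028) had 30.7 at the lowest, 45.7 at the median and 89.2 CPM at the highest in mutant tracheas, against 103, 134, 180.0 and 166 CPM in control tracheas. Every mutant was under every control, with a log2 fold change of -1.40 (adjusted p = 0.29, SE 0.32). Matn3 also passed by DESeq2, so that DESeq2 called 3 of the 35 genes, Acan, Cytl1 and Matn3. The share of all genes that DESeq2 called is not given here, so this count has no background beside it. Comp, a pentameric protein that binds collagen fibrils, averaged 29.8 ± 17.3 CPM in mutant tracheas and 64.1 ± 12.2 CPM in control tracheas (log2 fold change -1.10, adjusted p = 0.667, SE 0.40). Cilp2, a relative of the cartilage intermediate layer protein, averaged 7.35 ± 3.13 CPM in mutant tracheas and 14.3 ± 4.26 CPM in control tracheas, and Matn4 99.2 ± 23.2 CPM in mutant tracheas and 149 ± 16.9 CPM in control tracheas. Matn1 (matrilin-1), long used as a marker of tracheal cartilage, split the mutants: mutants 1, 2 and 3 had 18.8, 17.8 and 11.1 CPM, mutants 4, 5 and 6 had 94.4, 67.9 and 112 CPM, and the controls 64.1, 35.4, 63.7 and 61.2 CPM. The first 3 mutants lay below and the last 3 above every control, so that its log2 fold change of -0.07 (adjusted p = 0.99, SE 0.68) sums up neither.

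Of the small secreted and membrane proteins, Cytl1 (chromosome 5, 37735519 to 37739820) was the one gene that passed the adjusted threshold, and it was lower. It had 128 at the lowest, 138 at the median and 174 CPM at the highest in mutant tracheas, against 291, 290.4, 351 and 294 CPM in control tracheas. All 6 mutants lay well below all 4 controls, mutants 5 and 6 included, with a 2.10-fold lower level (log2 fold change -1.07, adjusted p = 5.84e-04, SE 0.11). Cnmd had 84.2 at the lowest, 127 at the median and 298 CPM at the highest in mutant tracheas, against 294, 262, 383 and 371 CPM in control tracheas (log2 fold change -0.97, adjusted p = 0.667, SE 0.34), and here mutant 6 was inside the control range. Clec3a, a cartilage lectin, averaged 9.38 ± 6.61 CPM in mutant tracheas and 16.6 ± 2.7 CPM in control tracheas. Ucma, a secreted matrix protein of immature chondrocytes, ran over 20.4 to 132 CPM in mutant and 77.5 to 121 CPM in control tracheas. Scrg1 and Mia, both short genes of chondrocytes, ran over 6.16 to 22.7 CPM and 2.33 to 13.54 CPM in mutant tracheas, and over 11.4 to 21.3 CPM and 6.67 to 7.91 CPM in control tracheas. Mutant 4 was above every control for Ucma, Scrg1 and Mia, mutants 1, 2 and 3 were below every control for the same 3 genes, and mutant 6 was above every control for Ucma and Scrg1; 41.2% of the exon bases of Mia are shared with a predicted gene.

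The 3 SOX genes had smaller fold changes than Nkx3-2, and none of these regulators passed. Sox9 had 49.2 at the lowest, 83.8 at the median and 98.2 CPM at the highest in mutant tracheas, against 84.7, 112, 91.3 and 93.3 CPM in control tracheas, and its log2 fold change of -0.24 (adjusted p = 0.765, SE 0.16) had a 95% interval of -0.55 to 0.06. Mutants 2, 3 and 4 were below every control, mutant 3 by the most. Sox5 had 15.4 at the lowest, 17.1 at the median and 20.8 CPM at the highest in mutant tracheas, against 23.3, 17.9, 20.6 and 21.7 CPM in control tracheas (log2 fold change -0.22, adjusted p = 0.769, SE 0.15); 9.25% of its exon bases are shared with its antisense gene Sox5os1. Sox6 had 21.8 at the lowest, 24.6 at the median and 29.3 CPM at the highest in mutant tracheas, against 34.2, 25.6, 26.1 and 26.8 CPM in control tracheas (log2 fold change -0.15, adjusted p = 0.825, SE 0.14). The groups overlapped for all 3 SOX genes, and their point estimates lay between -0.24 and -0.15. Wwp2 averaged 538 ± 75.9 CPM in mutant tracheas and 602 ± 108 CPM in control tracheas. Nkx3-2, a repressor that acts early in chondrocytes, was near the floor, at 0.126 to 0.952 CPM in mutant and 0.83 to 2.48 CPM in control tracheas, with overlap (log2 fold change -1.39, adjusted p = 0.737, SE 0.74).

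Among signals and receptors, Ihh, the hedgehog ligand of prehypertrophic chondrocytes, stayed at 0 to 2.05 CPM in mutant and 0 to 1.85 CPM in control tracheas. Pth1r averaged 35.01 ± 8.1 CPM in mutant tracheas and 32.3 ± 2.33 CPM in control tracheas, with a log2 fold change of 0.11 (adjusted p = 0.886, SE 0.16). Fgfr3 (chromosome 5, 33721674 to 33737068) had 128 at the lowest, 177 at the median and 204 CPM at the highest in mutant tracheas, against 215, 230.5, 281 and 259.9 CPM in control tracheas, without overlap (log2 fold change -0.49, adjusted p = 0.386, SE 0.13). For this gene 13.9% of exon bases are shared with another gene, G630022F23Rik. Papss2, which makes the sulphate donor for proteoglycans, averaged 79.8 ± 27.3 CPM in mutant tracheas and 124 ± 11.1 CPM in control tracheas (log2 fold change -0.64, adjusted p = 0.617, SE 0.21). Xylt1, which starts the glycosaminoglycan chain, averaged 53.5 ± 9.71 CPM in mutant tracheas and 67.5 ± 10.8 CPM in control tracheas (log2 fold change -0.33, adjusted p = 0.732, SE 0.15).

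**Figure D3:**
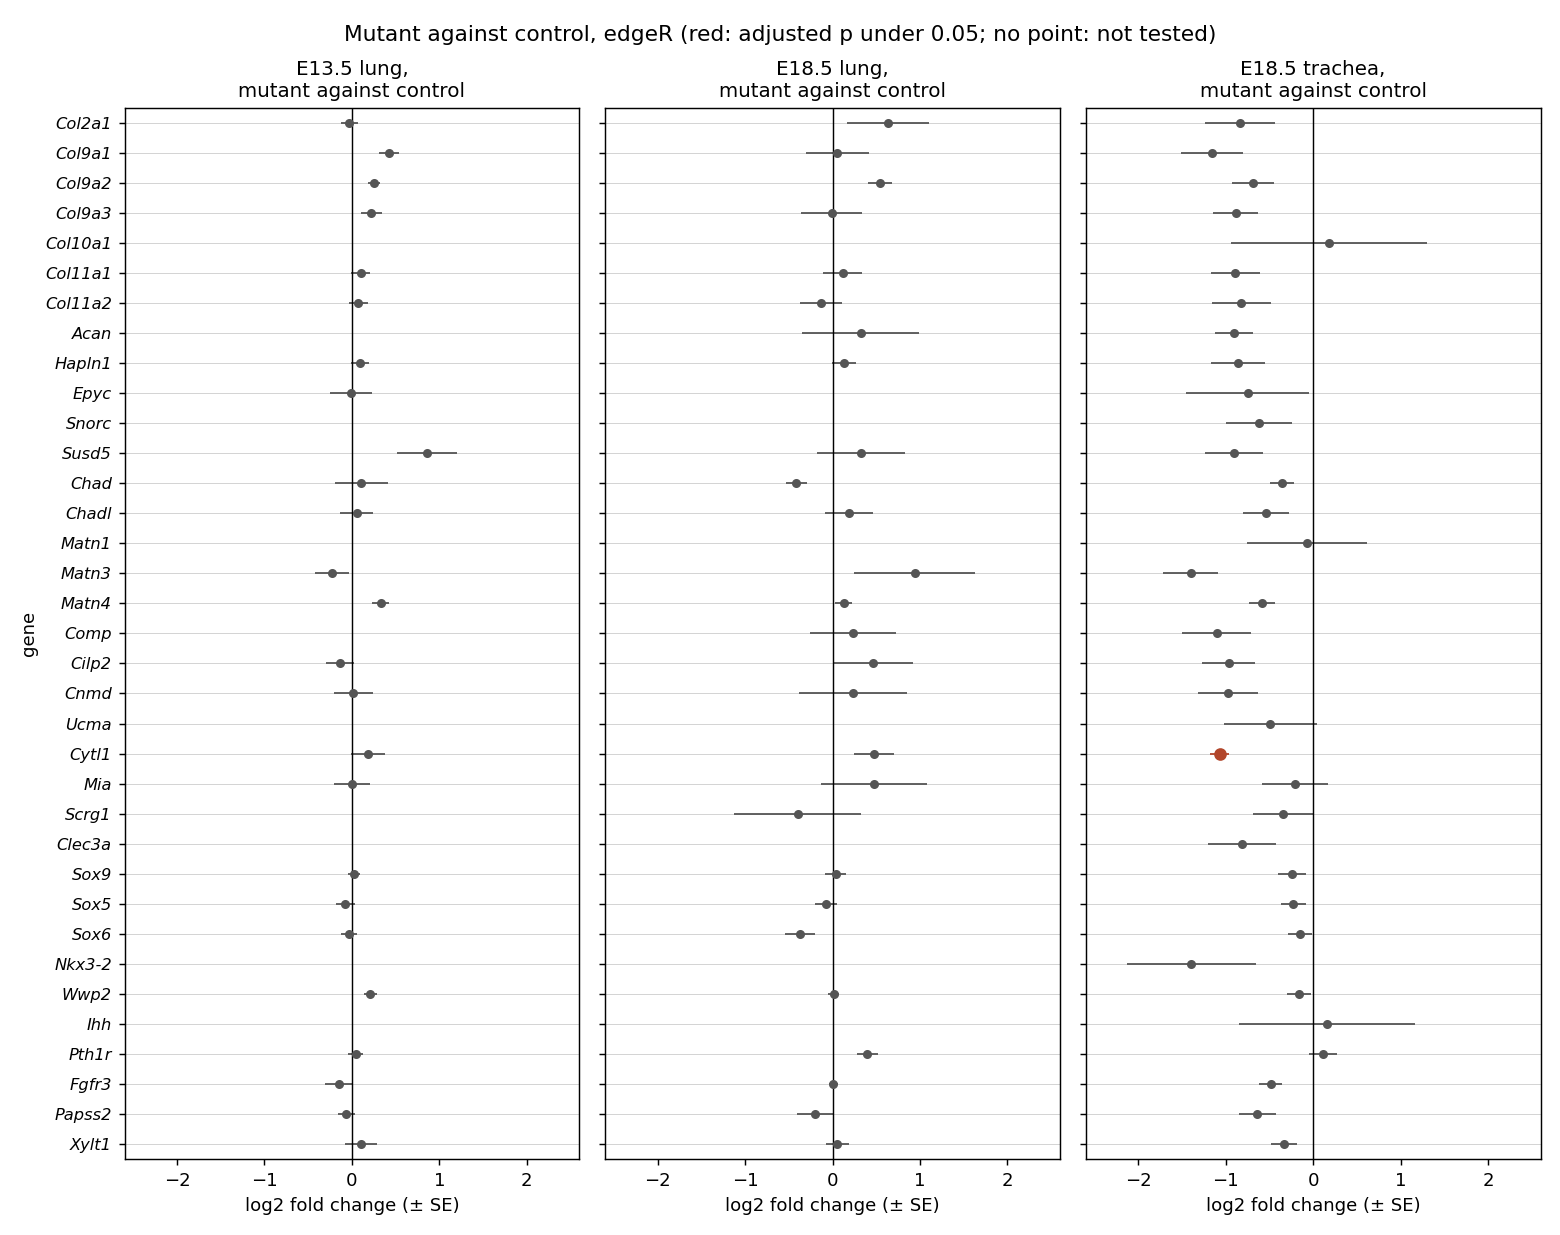
Log2 fold change of each gene, mutant against control, with its standard error, in E13.5 lung, E18.5 lung and E18.5 trachea; red marks an adjusted p under 0.05 and a missing point a gene that did not pass the filter on low counts. In the trachea 32 of 35 points lie left of 0 and Cytl1 alone is red. In E18.5 lung 7 of 27 and in E13.5 lung 9 of 25 lie left of 0.

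Other measures varied across the tracheas beside these levels. The skeletal muscle list (9 of 10 genes tested, 0 passed) summed to 60.8, 37.3, 20.6, 2039, 1018 and 3321 CPM in mutants 1 to 6, and to 2684, 144, 41.4 and 1041 CPM in controls 1 to 4. Among the mutants it was lowest in the 3 where the summed cartilage level was lowest, while control 3, with 41.4 CPM, less than mutant 1, had the highest summed cartilage level of all tracheas. Red cell genes (6 of 6 above 0 in log2 fold change, 0 passed) summed to 1050, 1434, 916, 3665, 1026 and 526 CPM in mutants 1 to 6 and to 371 to 717 CPM in controls. The genes Gm23935, Mir6236 and CT010467.1, 3 features that took many reads, held 0.962%, 8.31%, 8.51%, 18.3%, 4.14% and 1% of counts in mutants 1 to 6, and 1.06% to 3.36% in controls. Mutant 4 had the highest share of these, the highest red cell sum, the lowest sum of perichondrium and tendon genes (16730 CPM, against 30060 to 38360 CPM in the other mutants and 33110 to 42390 CPM in controls), and a library in which short genes stood higher relative to long ones: the slope of log2 level on log2 gene length, relative to the mean of all tracheas, was -0.14 in mutant 4, -0.06 to 0.04 in the other mutants and -0.02 to 0.07 in controls.

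**Figure D4:**
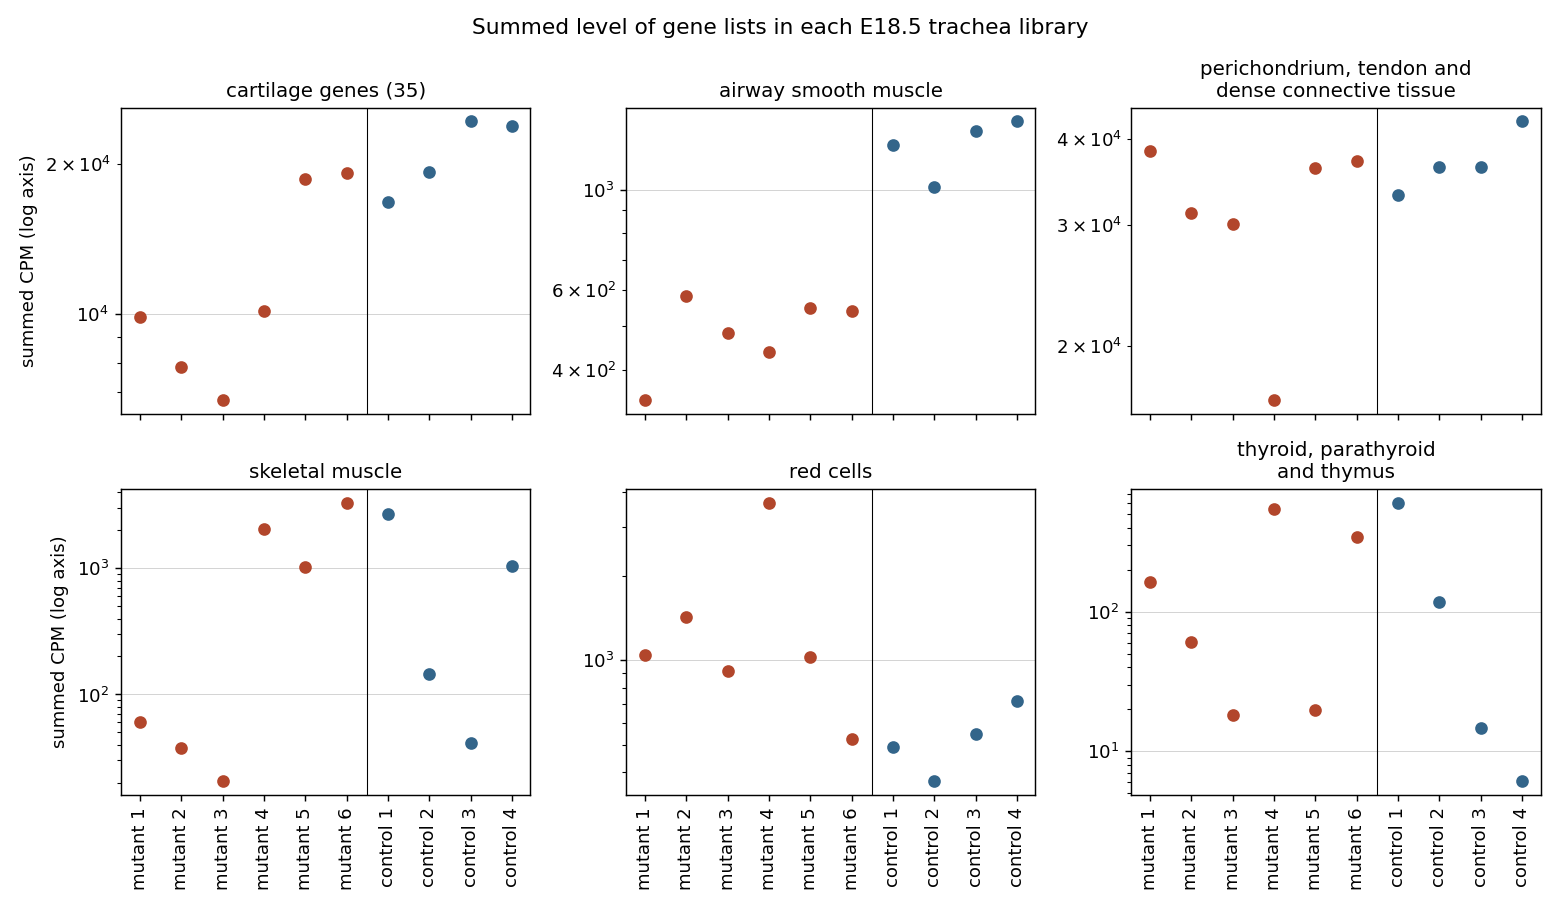
Summed CPM of the 35 cartilage genes and of 5 marker lists in each E18.5 trachea library, on log axes, mutants in red on the left and controls in blue on the right. Smooth muscle is low in all 6 mutants, the cartilage sum in mutants 1 to 4 only, skeletal muscle and thyroid genes vary within both groups, and mutant 4 is lowest for perichondrium and highest for red cells.

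With the skeletal muscle sum as a covariate, 24 of 35 cartilage genes were lower at an unadjusted p under 0.05, against 3.53% of all genes in that fit. With the length slope as a covariate 11 were, against 3.55% of all, and with the red cell sum 8 were, against 1.82% of all; without a covariate the count was 18. Cytl1 passed the adjusted threshold in each of these fits, and it was the only one of the 35 genes to do so. The red cell sums of mutants 1 to 5 (916 to 3665 CPM) lay above every control (371 to 717 CPM), and mutant 6 (526 CPM) lay among the controls. That covariate thus runs largely with genotype. In the fit with it, the fall from 18 to 8 genes cannot be assigned to either. Without the 2 tracheas under 15 M counts (mutant 4 and control 2), 14 of 35 were lower at an unadjusted p under 0.05, against 4.22% of all, and 2 passed the adjusted threshold, Cytl1 and Snorc. The part of each of these measures in the cartilage levels was otherwise not tested.

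The mutant effect was next set against that of E18.5 lung in one model of 20 libraries. Cytl1 alone of 35 genes passed, with a difference of the 2 log2 fold changes, trachea minus lung, of -1.50 (SE 0.18, adjusted p = 3.23e-04); 0.0201% of all genes passed downwards. Its own values were -1.07 in trachea and 0.48 in lung, the lung value not passing the threshold. At an unadjusted p under 0.05 the difference was below 0 for 11 of 35 genes, against 1.68% of all 19859 genes. This count is a description, since 8 of the 35 did not pass the filter in E18.5 lung and entered through the trachea alone; of the 27 that passed it in lung too, 10 had a difference below 0 at an unadjusted p under 0.05, against 1.74% of all genes that passed in both. Col9a2 had a difference of -1.19 (adjusted p = 0.261) and Matn4 of -0.67 (adjusted p = 0.3), neither past the threshold. Both genes are well expressed in lung.

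In E18.5 lung, 0 of 27 cartilage genes tested passed, against 0.584% of all genes in either direction. By sign, 7 of 27 had a log2 fold change below 0, against 48.7% of all genes. Their median was 0.128, against 0.00495 over all genes. At an unadjusted p under 0.05, 2 were higher, against 4.02% of all, and 2 lower, against 5.39% of all; by DESeq2 1 gene, Col9a2, passed. Col9a2 had 21.2 at the lowest, 26.6 at the median and 29.1 CPM at the highest in mutant lungs, against 15.4, 22.5, 13.7 and 19.3 CPM in control lungs (log2 fold change 0.54, adjusted p = 0.102, SE 0.14). Pth1r, at 32.2 to 50.04 CPM in mutant and 24.7 to 30.4 CPM in control lungs, did not overlap and was higher (log2 fold change 0.40, adjusted p = 0.188, SE 0.12; 0.664% of all genes did so). Chad, at 12.2 to 18.2 CPM in mutant and 18.4 to 24.1 CPM in control lungs, did not overlap and was lower (log2 fold change -0.41, adjusted p = 0.179, SE 0.12; 1.76% of all genes did so). Cytl1 had 2.58 at the lowest, 3.66 at the median and 3.99 CPM at the highest in mutant lungs, against 2.63, 3.13, 2.27 and 1.99 CPM in control lungs (log2 fold change 0.48, adjusted p = 0.537, SE 0.23), a point estimate opposite in sign to that of the trachea.

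The other genes named above by library were as follows in E18.5 lung. Col2a1 had 1.09 at the lowest, 2.8 at the median and 4.78 CPM at the highest in mutant lungs, against 0.761, 3.83, 1.19 and 1.46 CPM in control lungs. Col9a1 had 0.741 at the lowest, 1.33 at the median and 1.92 CPM at the highest in mutant lungs, against 1.21, 1.46, 1.43 and 1.01 CPM in control lungs. Both collagens were thus under 5 CPM in every lung, with overlapping groups. Col9a3 had 0.66 at the lowest, 2.2 at the median and 3.13 CPM at the highest in mutant lungs, against 1.76, 2.52, 1.85 and 2.56 CPM in control lungs. Col11a2 had 6.05 at the lowest, 8.48 at the median and 16.1 CPM at the highest in mutant lungs, against 7.82, 9.24, 11.8 and 12.3 CPM in control lungs. Cnmd had 0.0362 at the lowest, 0.65 at the median and 1.02 CPM at the highest in mutant lungs, against 0.623, 0.517, 0.42 and 0.528 CPM in control lungs, and these 3 genes overlapped between the groups as well. Chad had 12.2 at the lowest, 16.1 at the median and 18.2 CPM at the highest in mutant lungs, against 19.3, 18.4, 22.6 and 24.1 CPM in control lungs, and was the one of these genes in which the groups stood apart. Sox9 had 18 at the lowest, 19.1 at the median and 22.7 CPM at the highest in mutant lungs, against 15.6, 17.7, 18.02 and 24.9 CPM in control lungs (log2 fold change 0.04, adjusted p = 0.963, SE 0.12). Sox5 had 14.3 at the lowest, 16.7 at the median and 20.98 CPM at the highest in mutant lungs, against 22.2, 15.9, 18.2 and 15.1 CPM in control lungs. The groups overlapped for both regulators. Sox6 had 7.72 at the lowest, 11.02 at the median and 13.96 CPM at the highest in mutant lungs, against 16.2, 11.3, 15.8 and 11.6 CPM in control lungs (log2 fold change -0.37, adjusted p = 0.516, SE 0.17). Col10a1 stayed at 0 to 0.759 CPM in mutant and 0.138 to 0.456 CPM in control lungs.

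In E13.5 lung, 0 of 25 cartilage genes tested passed, against 0.206% of all genes in either direction. By DESeq2 0 passed as well. A log2 fold change below 0 was seen in 9 of 25, against 45.9% of all genes. Their median was 0.0529, against 0.0109 over all genes. At an unadjusted p under 0.05, 5 of 25 were higher (Col9a1, Col9a2, Susd5, Matn4 and Wwp2), against 1.27% of all genes, and 0 were lower. Matn4 had 50.8, 37.97, 41.2, 42.9 and 39.9 CPM in mutant lungs, against 37.5, 28.9, 30.2, 36.8 and 35.7 CPM in control lungs, higher in every mutant (log2 fold change 0.33, adjusted p = 0.69, SE 0.10; 1 of 25 genes did so, against 0.376% of all). Col9a1 had 16.8, 16.6, 17.2, 12.2 and 12.4 CPM in mutant lungs, against 12.9, 11.3, 10.3, 10.5 and 10.9 CPM in control lungs (log2 fold change 0.42, adjusted p = 0.551, SE 0.12), with mutants 4 and 5 inside the control range. Col9a2 had 62.4, 66, 70.9, 60.2 and 58.5 CPM in mutant lungs, against 49.6, 60.1, 54.1, 52.05 and 50.9 CPM in control lungs (log2 fold change 0.25, adjusted p = 0.616, SE 0.07). None of these differences passes once all genes are counted.

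The remaining genes named by library lay close together in the 2 genotypes at E13.5. Col2a1 had 91.1, 109, 128, 98.9 and 105 CPM in mutant lungs, against 116, 116, 93.4, 99.3 and 116 CPM in control lungs (log2 fold change -0.03, adjusted p = 0.998, SE 0.10). Cytl1 had 9.37, 5.62, 5.63, 6.04 and 6.53 CPM in mutant lungs, against 7.63, 3.77, 5.23, 6.6 and 5.76 CPM in control lungs (log2 fold change 0.18, adjusted p = 0.998, SE 0.19). Mutant 1 was the highest library for Cytl1 and the groups overlapped. Sox9 had 76.4, 62.8, 72.9, 65.1 and 65.1 CPM in mutant lungs, against 68.3, 72.3, 64.8, 61.8 and 69.9 CPM in control lungs (log2 fold change 0.02, adjusted p = 0.998, SE 0.07). Sox5 had 14.2, 18.02, 15.02, 16.5 and 14.1 CPM in mutant lungs, against 14.6, 18.6, 18.8, 16.1 and 13.8 CPM in control lungs. Sox6 had 15.7, 19.1, 20.6, 19.4 and 17.1 CPM in mutant lungs, against 19.9, 18.2, 21.2, 17.4 and 17.4 CPM in control lungs, and the 3 SOX genes overlapped between genotypes. Col9a3 had 33.7, 24.5, 25.8, 22.5 and 21.9 CPM in mutant lungs, against 22.7, 23.5, 18.3, 21.8 and 23.3 CPM in control lungs. Col11a2 had 26.03, 28.4, 37.7, 33.98 and 32.4 CPM in mutant lungs, against 32.7, 25.5, 31.6, 27.7 and 33.2 CPM in control lungs. Both chains were higher at this age than in E18.5 lung, and the genotypes overlapped. Chad had 0.83, 3.56, 2.98, 3.21 and 3.57 CPM in mutant lungs, against 3.28, 1.85, 3.29, 2.85 and 2.09 CPM in control lungs. Cnmd had 3.14, 2.47, 2.77, 2.86 and 2.54 CPM in mutant lungs, against 3.31, 1.52, 1.9, 3.71 and 3.12 CPM in control lungs. Col10a1 was at 0 to 0.0715 CPM in mutant and 0 to 0.0844 CPM in control lungs, near the floor.

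**Figure D5:**
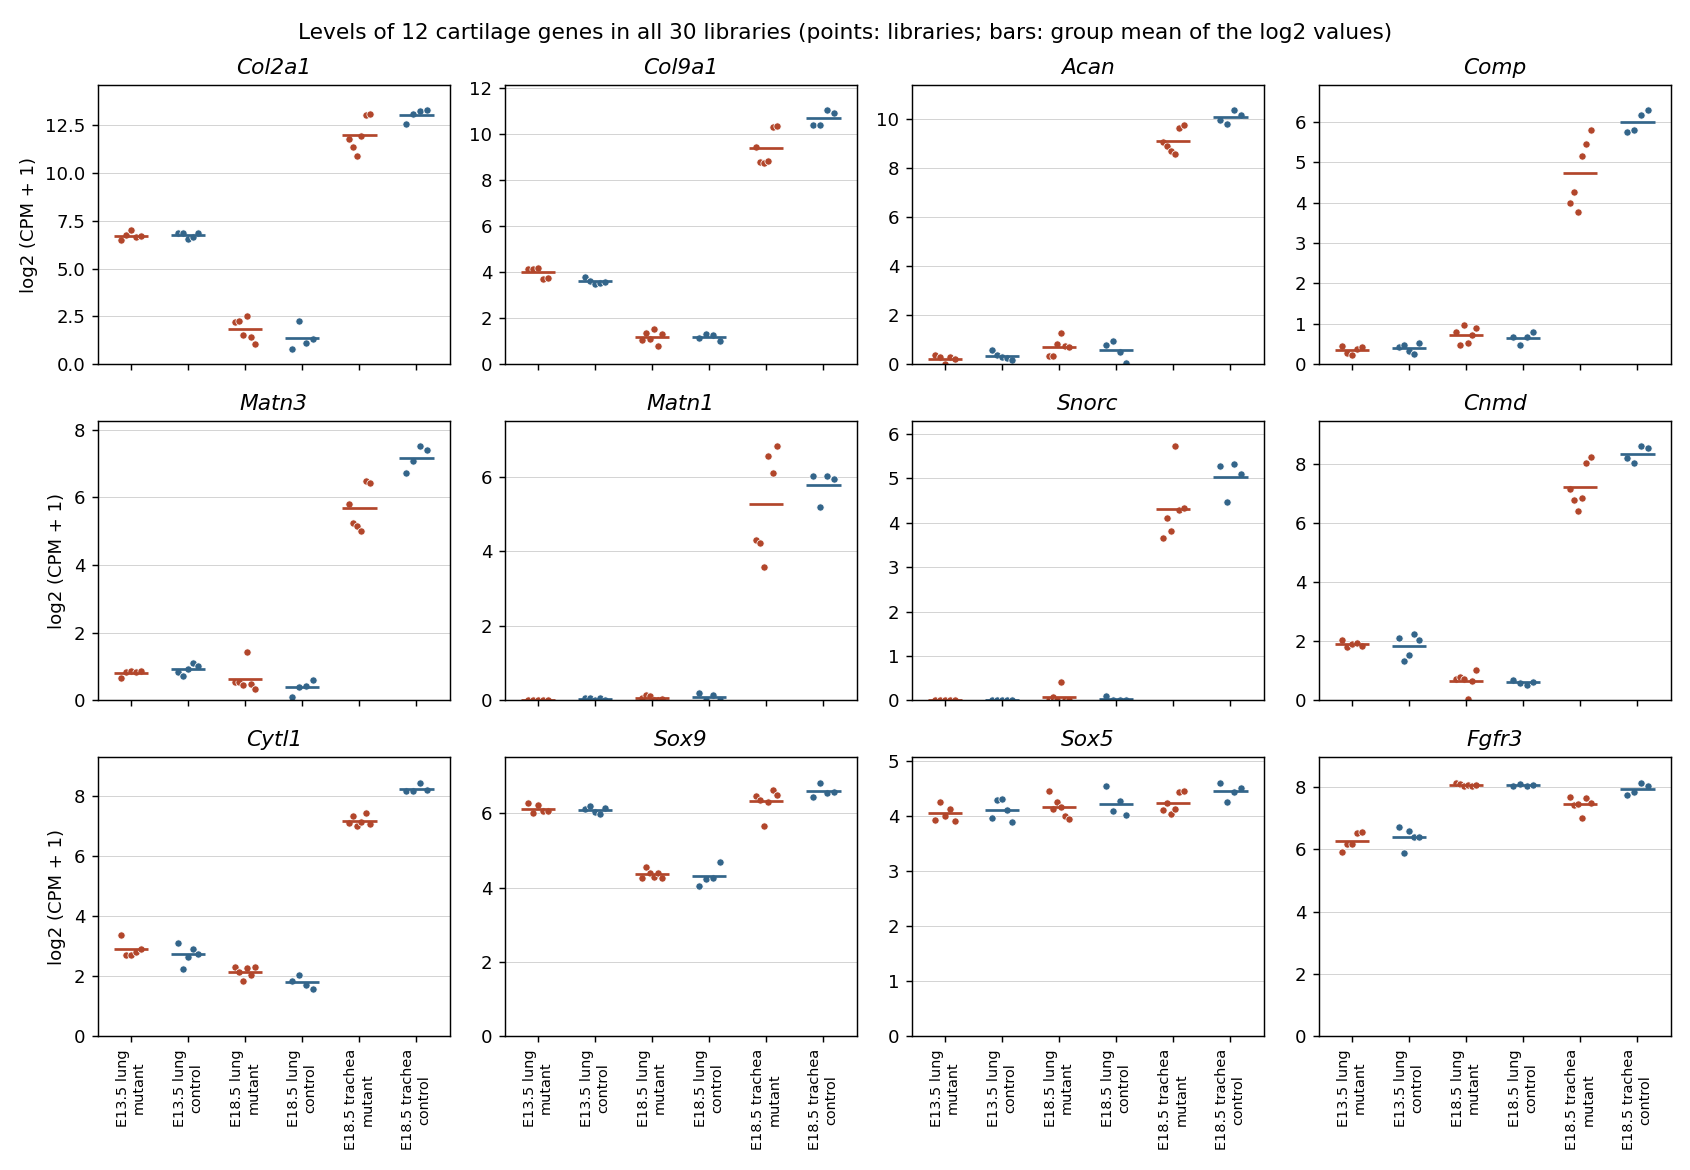
Levels of 12 cartilage genes in all 30 libraries as log2 (CPM + 1), with mutants in red and controls in blue; points are libraries and bars the mean of their log2 values. Cytl1 is low in all 6 mutant tracheas, Col2a1 in 4 and Comp and Cnmd in 5 of 6, and Col2a1 and Col9a1 are higher in E13.5 than in E18.5 lungs.

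Control lungs also differed between the ages. In controls, 15 of 27 genes tested were lower at E18.5 than at E13.5, against 39.6% of all genes, and 6 were higher, against 40.4% of all. Col2a1 averaged 1.81 ± 1.38 CPM in E18.5 lungs (SD, n = 4) and 108 ± 11.03 CPM in E13.5 lungs (SD, n = 5), a log2 fold change of -5.82 (adjusted p = 1.26e-07, SE 0.35). Col11a1 averaged 5.81 ± 1.05 CPM in E18.5 lungs and 69.3 ± 6.09 CPM in E13.5 lungs (log2 fold change -3.54, adjusted p = 2.29e-11, SE 0.13), and all of Col9a1, Col9a2, Col9a3 and Col11a2 fell as well. Sox9, which also marks the distal tips of the lung epithelium, averaged 19.1 ± 4.07 CPM in E18.5 lungs and 67.4 ± 4.16 CPM in E13.5 lungs (log2 fold change -1.79, adjusted p = 8.57e-09, SE 0.12). Cytl1 averaged 2.51 ± 0.492 CPM in E18.5 lungs and 5.8 ± 1.45 CPM in E13.5 lungs (log2 fold change -1.17, adjusted p = 1.93e-04, SE 0.21). The 6 that rose were Chad, Matn4, Comp, Wwp2, Fgfr3 and Xylt1; Chad averaged 21.1 ± 2.7 CPM in E18.5 lungs and 2.67 ± 0.67 CPM in E13.5 lungs (log2 fold change 3.01, adjusted p = 1.13e-09, SE 0.17), and Matn4 140.2 ± 24.6 CPM in E18.5 lungs and 33.8 ± 3.98 CPM in E13.5 lungs. E18.5 lungs were right lobes and E13.5 lungs both sides, so that age and the lobes taken cannot be told apart, and Acan stayed below 1 CPM in every control lung at both ages. Libraries of each age are also numbered and counted as a separate set. Any difference in their processing cannot be told apart from age either.

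Among genes that act with the 35, none passed in mutant tracheas by edgeR. Over all genes, 0.0655% passed as lower by edgeR. At an unadjusted p under 0.05, 3.42% of all genes were lower and 3.33% higher. Of 24 further genes of chondroitin and keratan sulphate synthesis, 22 were tested and 0 passed in either direction, with a median log2 fold change of -0.14; 3 were lower at an unadjusted p under 0.05, and DESeq2 called 1, Chst11, a chondroitin sulphotransferase, as lower. The most abundant, Ugp2 and Papss1, which make a sugar donor and the sulphate donor, had fold changes on the log2 scale of -0.12 for Ugp2 (adjusted p = 0.847) and -0.07 for Papss1 (adjusted p = 0.93). Of 34 signalling genes of hedgehog, BMP, FGF and WNT pathways, 34 were tested and 0 passed by edgeR or DESeq2, with 1 higher and 1 lower at an unadjusted p under 0.05 and a median of -0.09. The receptor Fgfr1 had -0.24 (adjusted p = 0.768) and the ligand Tgfb3 0.08 (adjusted p = 0.88). Of 20 genes of the perichondrium and of tendon or other dense connective tissue, 0 passed by edgeR or DESeq2, with 3 lower at an unadjusted p under 0.05 and a median of -0.12. Col3a1 had 10190 ± 2864 CPM in mutant tracheas and 10990 ± 639 CPM in control tracheas (log2 fold change -0.11, adjusted p = 0.929), and Col1a2 7646 ± 2234 CPM in mutant tracheas and 9501 ± 1121 CPM in control tracheas (log2 fold change -0.31, adjusted p = 0.782). Of 10 airway smooth muscle genes 3 passed as lower by edgeR and 7 by DESeq2, with a median of -1.65. Myh11, smooth muscle myosin, had 64.6 ± 12.3 CPM in mutant tracheas and 263 ± 71.01 CPM in control tracheas (log2 fold change -2.02, adjusted p = 7.23e-05). Synpo2, an actin-binding protein, had 14.3 ± 6.06 CPM in mutant tracheas and 43.1 ± 5.86 CPM in control tracheas (log2 fold change -1.59, adjusted p = 0.0381), and Mylk, myosin light chain kinase, 105 ± 16.8 CPM in mutant tracheas and 211 ± 26.9 CPM in control tracheas (log2 fold change -1.002, adjusted p = 0.00657).

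Markers of the other tissues that a dissected trachea can hold were present, and by edgeR 0 genes of any such list passed in the trachea. By DESeq2 2 did, Lyz2 higher and S100b lower, and at an unadjusted p under 0.05 each list held 0 to 4 genes. These included 4 of 6 red cell genes tested, which were higher, against 3.33% of all genes. They also included 3 of 8 genes of neurons and glia, which were lower, against 3.42% of all. In mutant and in control tracheas, thyroid, parathyroid and thymus genes, led by Tg, summed to 18.04 to 542 and 6.13 to 607 CPM, and oesophagus genes, led by Lypd2 and Krt4, to 341 to 941 and 356 to 456 CPM. Airway epithelium, led by Scgb3a2 and Scgb1a1, summed to 22860 to 38880 CPM in mutant and 26500 to 29260 CPM in control tracheas. Alveolar epithelium (Sftpb, Abca3), which summed to 14190 to 18160 CPM in mutant and 15480 to 18030 CPM in control lungs at E18.5, gave 555 to 1097 CPM in mutant and 753 to 803 CPM in control tracheas, endothelium (Pecam1, Cdh5) 384 to 473 and 394 to 449 CPM, and mesothelium (Msln, Upk1b) 223 to 342 and 213 to 247 CPM. Leukocyte genes (Lyz2, Csf1r) gave 296 to 702 CPM in mutant and 250.4 to 322 CPM in control tracheas, and neurons and glia (S100b) 54.6 to 122 and 96.0 to 215 CPM. The part of these tissues in the cartilage levels was not tested.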

How the data were processed

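RNA-seq libraries were made from single lungs or tracheas with a kit that does not keep strand and read as 75-base single reads, per the labels' protocols. The deposited values are read counts per gene that the authors made with featureCounts 1.6.2 on STAR alignments to GRCm38 with GENCODE vM17, per the file headers and the submitters' processing notes; the version of STAR was not stated there. With the default options in the headers, reads over 2 genes or at several places are not counted, which lowers genes with shared exons. The shares of exon bases given here were taken from GENCODE vM21, a later release than that of the counts. Overlaps in the release used for counting may differ. Symbols were matched to 53620 of the 53715 gene identifiers from a reference table of gene names.

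From these counts, genes were filtered with filterByExpr, scaled by TMM and tested with edgeR 4.0.16 (R 4.3.3): the quasi-likelihood test, robust, in each tissue and age, in 1 model for the difference of the tracheal and lung effects, and between controls. DESeq2 1.42.0, other scalings, no filter, a block for the replicate number and leaving out each library were alternatives; the covariates and the fit without 2 libraries were added after seeing the data. The test was checked on simulated counts. Same-numbered lung and trachea libraries deviated together weakly at E18.5 (correlations of 0.167 to 0.297 in controls and 0.11 to 0.3 in mutants). The closest lung library had the same number for every control trachea and for mutants 1 to 5, while for mutant 6 it was lung mutant 5. The numbers may thus pair tissues, and the main tests left this pairing out. With that pairing as a block, the counts of cartilage genes called in the difference and between control tissues did not change. No 2 libraries agreed within sampling noise.

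The members and lists were chosen with earlier results of these data known. Values by library are given for genes past the threshold, the 8 highest by TPM in control tracheas, Sox9, Sox5, Sox6 and Col10a1, and for a few more (Acan, Matn1, Matn3, Matn4, Fgfr3) chosen after their values were seen; other lists are named by their called or their 2 most abundant genes, of which some are not reported here. The p-values rest on the spread between libraries, each from a single embryo's lung or trachea. Whether embryos of a group were independent depends on litters, which the labels do not give.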

Additional observations from a re-analysis of the deposited data

Results flagged for a closer look

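Cytl1 was the gene whose mutant effect differed between tissues by a test of the difference itself: trachea minus lung was -1.50 on the log2 scale (edgeR, adjusted p = 3.23e-04), with 6 of 6 mutant tracheas below every control trachea.

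A single library stood far from the others of its group in 8 of 150 combinations of gene and group at 1 CPM or more, and chance alone gives about 5%. In E13.5 mutant lungs this was mutant 1 each time, low for Chad at 0.83 CPM and high for Cytl1 at 9.37 CPM and Mia at 2.96 CPM. In E18.5 control lungs it was control 4 for Chadl, at 2.598 CPM. In control tracheas it was control 2 for Matn1, low at 35.4 CPM, control 3 for Cytl1, high at 350.7 CPM, and control 1 for Sox6, high at 34.2 CPM. In mutant tracheas it was mutant 4 for Snorc, high at 51.7 CPM.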

How the results depend on the processing

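Of 932 alternative values for 51 results, 871 kept their direction and their side of the threshold (or stayed within 1.5 times, for counts). Cytl1 passed in the trachea under every alternative. Genes called in the trachea (1 in the report) numbered 3 by DESeq2 (Acan, Cytl1 and Matn3) and 2 without the 2 libraries under 15 M counts (Cytl1 and Snorc). With a replicate block 11 were called, among 0.147% of all genes called lower, and the median was -1.12; mutants 5 and 6 have numbers that no control shares, so by construction they carry no weight there. Mutant and control numbers did not pair throughout: same-numbered libraries correlated at -0.347 to 0.506 in the trachea, 0.0121 to 0.437 in lung at E18.5 and, at E13.5, -0.332 to 0.000575. The closest control had the same number for trachea mutants 2 and 3 and for E18.5 lung mutants 2, 3 and 4. It did so for no E13.5 mutant. Whether a number marks a shared litter or batch at E18.5 was not tested. Against 0 in the report, 1 gene of E18.5 lung (Col9a2) was called with no filter, by DESeq2, with the block and without control 2, a range of 0 to 1 over the libraries left out. The difference between tissues gave 2 calls by DESeq2 (Col9a2 and Cytl1). The share of all genes called by DESeq2, or without the 2 libraries under 15 M counts, is not given here. Those calls therefore have no background beside them.

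Values near 0 changed sign. The E13.5 lung median was -0.002002 without control 2 and ran to 0.1027 over the libraries left out. In the trachea, Col10a1 ran from -0.21 to 1.06 over the libraries left out, and was -0.45 without the 2 shallow libraries, -0.75 with the red cell covariate and -0.66 with the length slope. Matn1 ran from -0.43 to 0.14, Ihh from -0.23 to 0.93 (-0.65 with the block), and Pth1r from -0.0175 to 0.182 (-0.0226 without the 2 shallow libraries, -0.17 with the red cell covariate and -0.0856 with the length slope). Sox6 was 0.0101 with the red cell covariate. The cause was not tested. Genes under 1 CPM (Col10a1 and Ihh in control tracheas) are too shallow for a fold.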

Other observations

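Some genes outside the 35 were picked after their values were seen, since they work with cartilage. In mutant tracheas the log2 fold changes were -0.70 for Chst11 and -0.51 for Chst15, both chondroitin sulphotransferases, -0.66 for Runx2, a regulator of hypertrophy and bone, -0.56 for Ror2, a WNT5A receptor, and -0.85 for S100b, a calcium-binding protein of glia that chondrocytes also make. None passed the adjusted threshold of edgeR; Chst11 and S100b passed that of DESeq2.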
